A study of Mus musculus with 14 samples.

Results

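The response to ovalbumin (OVA) was compared between *Mcemp1*-/- and *Mcemp1*+/+ lungs. For every gene, the difference between OVA and saline lungs of the knockout was taken, and that of the wild type was subtracted from it, on the log2 scale of the deposited normalized counts after addition of 0.5. All 14 of 14 libraries of the series entered, and 22828 of 24270 genes were kept by a filter on low values. A negative difference means that OVA raised a gene less, or lowered it more, in the knockout. The groups were OVA-treated *Mcemp1*-/- lungs (OVA KO, 4 libraries), saline-treated *Mcemp1*-/- lungs (saline KO, 3 libraries), OVA-treated *Mcemp1*+/+ lungs (OVA WT, 4 libraries) and saline-treated *Mcemp1*+/+ lungs (saline WT, 3 libraries). All mice were C57BL/6, matched for age and sex and 6 to 8 weeks old at the start. They were sensitized by intraperitoneal injection on days 1, 4 and 7. From 5 days later they were challenged weekly through the nose for 8 weeks. The OVA groups received OVA, and the control groups received saline throughout. The *Mcemp1* allele is a small frameshift deletion in exon 1, made with CRISPR-Cas9 and carried in every cell of the body. Its effect cannot be told apart from that of any other difference between the mouse lines. No label says that the libraries came from separate animals, so the p-values measure the spread between these libraries. Whether littermates were used is not given in the sources used here.

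OVA is a harmless egg protein. Mice sensitized to it and then exposed through the airway develop an allergic inflammation. T helper cells of the type 2 kind release IL-4, IL-5 and IL-13, eosinophils and monocytes enter the lung, and macrophages take on the alternatively activated state. B cells switch to IgG1 and IgE, and the airway epithelium turns from secretory club cells toward mucus. MCEMP1, mast cell-expressed membrane protein 1, is a transmembrane protein of mast cells and some other myeloid cells. The comparison asks whether the lung's transcriptional response to the allergen differs when this protein is missing. A difference of responses rests on 4 group means at once. Its median standard error was 0.189 log2 units, against 0.134 for each OVA response on its own.

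*Mcemp1* (chromosome 8, 3665754 to 3669259, GRCm38) had normalized counts of 4.88, 3.73, 4.17 and 4.25 in OVA KO lungs and 3.5, 3.88 and 4.98 in saline KO lungs, against 20.1, 11.5, 12.8 and 14.6 in OVA WT lungs and 12, 9.92 and 9.84 in saline WT lungs. All KO libraries lay below all WT libraries. Transcripts with a small exon 1 deletion are still counted, so the value checks the labels only in part. Its OVA response was 0.05 ± 0.17 in the knockout and 0.44 ± 0.17 in the wild type on the log2 scale. The difference of -0.39 ± 0.24 (SE) did not pass the test (limma, adjusted p = 0.762). The tissue is labelled lung, although 1 protocol label names cultured mast cells as the RNA source. *Sftpc*, surfactant protein C, was at 6619 to 12361 normalized counts over the 14 libraries, whereas *Cpa3*, the mast cell carboxypeptidase, did not exceed 1.25. If the lowest value of a column stands for 1 read, the libraries held 57.2M to 67.1M reads in OVA KO, 48.5M to 54.3M in saline KO, 47.3M to 49.4M in OVA WT and 51.6M to 63.8M in saline WT. On the first principal component, 38.6% of the variance, the OVA KO libraries were spread from -8.7 to 35.8 and the saline KO libraries from -25.9 to -24.6. The OVA WT libraries lay between 25.5 and 44.7 and the saline WT libraries between -33.3 and -27.9. The 1 OVA KO library within the OVA WT range was OVA KO 1, at 35.8. OVA KO 3 and OVA WT 2 had more airway and mucus transcripts than the other libraries of their groups. Values without OVA KO 1 and without this pair are given where a result rests on them. These libraries were singled out by their values, so a larger difference or count without them is no independent support.

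Gene by gene, the difference of responses passed the test for 1 gene of 22828 (0.00438%, limma with Benjamini-Hochberg adjustment at 0.05). At an unadjusted p under 0.05, 744 genes (3.26%) had a lower and 858 genes (3.76%) a higher difference. Estimates below 0 made up 50.8% of all genes. The OVA response itself passed the test upward for 48 genes (0.21%) and downward for 38 (0.166%) in the knockout, against 995 (4.36%) and 1701 (7.45%) in the wild type. All of these counts moved with single libraries. Left out 1 at a time, the libraries gave 468 to 1267 genes with a lower and 599 to 1431 with a higher difference, least without saline KO 1 and most without OVA KO 1. The OVA response passed for 11 genes in the knockout without saline KO 1 and for 220 without OVA KO 4, and in the wild type for 1159 without saline WT 2 and for 3035 without OVA WT 2. A gene that passed in one genotype and missed in the other is not thereby shown to differ. The 95% interval of each difference was also read against a 2-fold change in either direction. It lay within those limits for 84.4% of genes, which are called bounded.

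The gene that passed was *Gm16867* (chromosome 14, 69363504 to 69503362, GRCm38), a predicted protein-coding gene that overlaps other annotated genes, named here after its values were seen. Its normalized counts were 1.45, 1.24, 1.27 and 3.05 in OVA KO lungs and 0.051, 0.058 and 0.135 in saline KO lungs, against 1.52, 2.66, 1.76 and 1.83 in OVA WT lungs and 3.59, 3.29 and 4.61 in saline WT lungs. The saline KO libraries stood apart at the low end, and all other libraries were above 1. The difference was 2.73 ± 0.33 (limma, adjusted p = 0.0254). Knockout minus wild type was -2.89 in the saline libraries and -0.16 in the OVA libraries. The call was lost with a pseudocount of 2, where the difference was 1.39 (limma, adjusted p = 0.131), and with the replicate number as a block (limma, adjusted p = 0.113). It was also lost when any 1 of 10 libraries was left out, namely OVA KO 1, OVA WT 1, 3 and 4 and each of the saline libraries, and the adjusted p ranged from 0.00227 to 0.15 over 26 alternatives (limma).

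Predicted genes and antibody or T cell receptor segments apart, the 12 genes with the smallest p for a lower difference included several of myeloid cells and of interferon signalling. *Ifi208* belongs to a family of interferon-inducible DNA sensors, *Cd274* encodes the checkpoint ligand PD-L1 and *Pim1* a kinase induced by cytokine receptors. *Ccl2* is the main monocyte attractant and *Timp1* an inhibitor of metalloproteinases. *Tbxas1*, thromboxane synthase, had a difference of -0.82. The myeloid surface receptors *Lilrb4a*, *Clec7a* (dectin-1), *Cd300lf* and *Ms4a7* had -0.78, -1.01, -0.95 and -0.68, and *Rbm46*, an RNA-binding protein of germ cells, had -0.78. None of the 12 passed, and their adjusted p lay between 0.542 and 0.638 (limma). Likewise, among the 12 with the smallest p for a higher difference after *Gm16867* were *Lmod2*, *Smyd1*, *Sgca*, *Xirp1*, *Kcnj3* and *Mylk3*, which are expressed in heart muscle, at 1.99, 1.66, 0.97, 1.80, 2.28 and 1.36. The others included *Acsl6* at 0.70, *Cilp2* at 1.28, *Igsf1* at 1.43, *Plaat1* at 0.63 and *Chrna10* at 0.70, and none passed (limma, adjusted p of 0.542 to 0.549). *Acsl6*, *Plaat1* and *Chrna10* were near the lower limit, with at most 0.453, 0.598 and 0.649 normalized counts in any library.

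In *Cd274* (chromosome 19, 29367455 to 29388095, GRCm38) the 4 groups were 32, 21.6, 21.8 and 18.6 in OVA KO lungs and 16.9, 18.1 and 17 in saline KO lungs, against 45.6, 53, 32.4 and 44.9 in OVA WT lungs and 17.1, 14.2 and 14.8 in saline WT lungs. The OVA KO libraries ended just below the lowest OVA WT library, and the saline groups overlapped. *Cd274* rose by 1.47 log2 units in the wild type (adjusted p = 0.00037, limma), and its response in the knockout was 0.40 ± 0.17 (adjusted p = 0.408). The difference was -1.07 ± 0.24 with an interval of -1.6 to -0.55 (limma, unadjusted p = 0.00068, adjusted p = 0.549). *Pim1* had 81.2, 62.4, 61.6 and 54 in OVA KO lungs and 57.4, 55.9 and 57.5 in saline KO lungs, against 106, 109.8, 83.7 and 98.2 in OVA WT lungs and 51.9, 45.5 and 58.2 in saline WT lungs. Here too no OVA KO library reached an OVA WT library, and the difference was -0.76 ± 0.18 (limma, unadjusted p = 0.00101). *Ifi208* had 8.91, 8.65, 7.78 and 10.3 in OVA KO lungs and 12.7, 14 and 15 in saline KO lungs, against 34, 24.6, 24.5 and 23.9 in OVA WT lungs and 24.3, 18.6 and 15.9 in saline WT lungs. All OVA KO libraries were below all other libraries. Its response was -0.62 ± 0.15 in the knockout and 0.44 ± 0.15 in the wild type, neither of which passed the test, and the difference was -1.06 ± 0.21 (limma, unadjusted p = 0.00023). Knockout minus wild type passed after OVA at -1.52 (limma, adjusted p = 0.00013) and was -0.46 after saline.

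**Figure D1:**
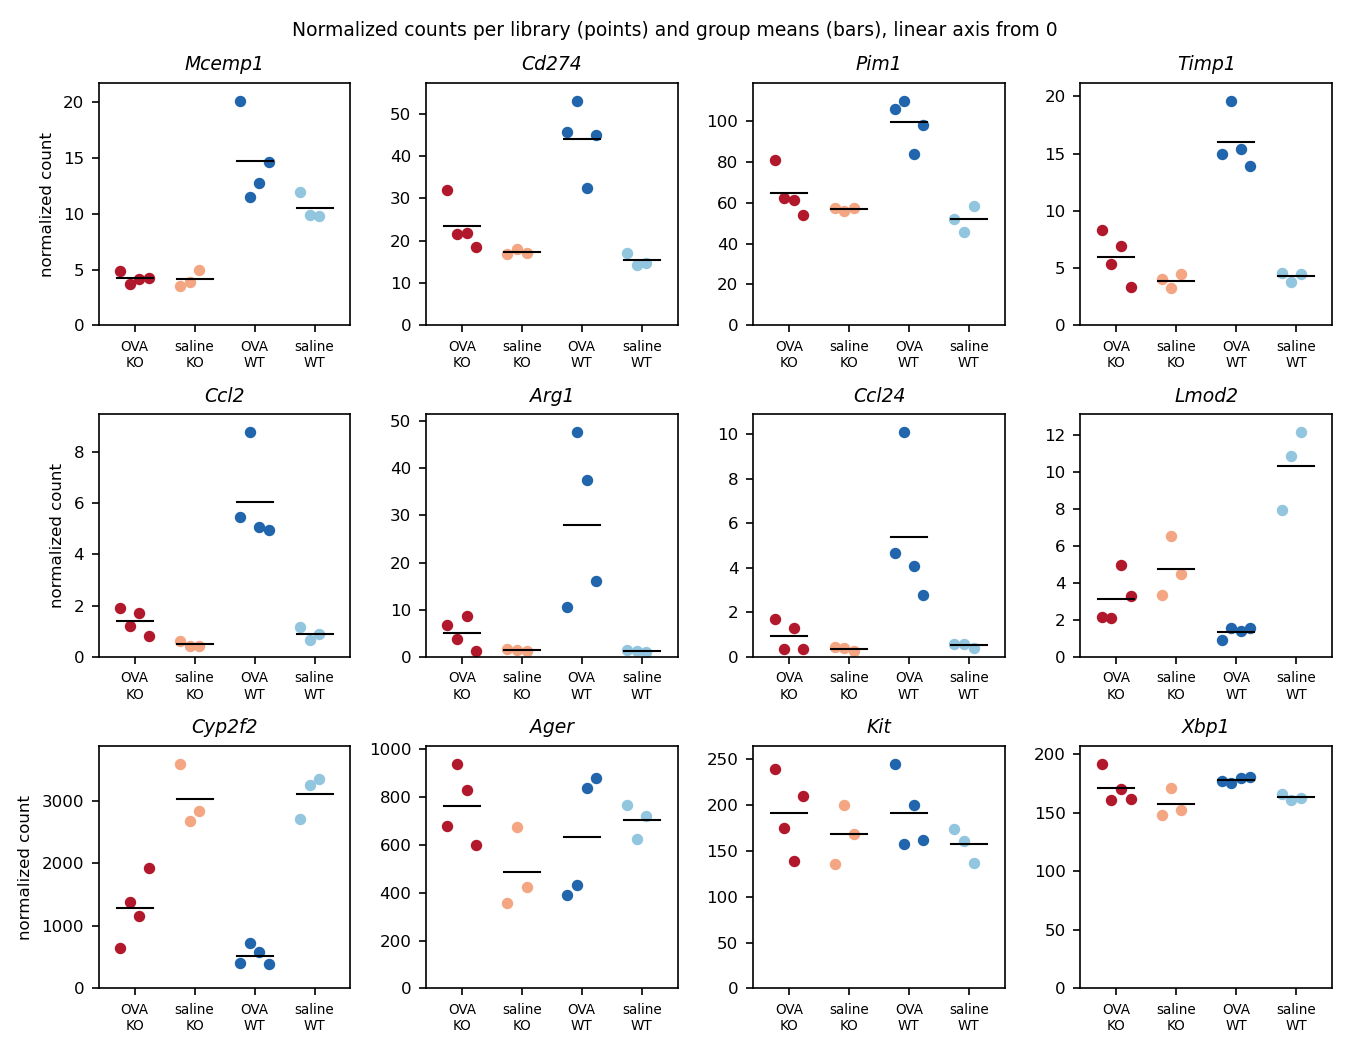
Normalized counts of 12 genes in each library (points, in library order from left to right within a group) with the group means (bars), on linear axes from 0. *Cd274*, *Pim1*, *Timp1*, *Ccl2*, *Arg1* and *Ccl24* lie lower in OVA KO than in OVA WT lungs with no overlap, *Lmod2* is lowest in OVA WT lungs, and *Kit* and *Xbp1* differ little among the 4 groups.

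The size of the response was described over many genes by choosing genes in one genotype and reading the other, since the 2 OVA comparisons share no library. Of the 200 genes with the smallest p in the wild type, 57 had a positive response there. Their median was 0.715 log2 units in the knockout and 1.51 in the wild type. The other 143 had a median of -0.778 in the knockout and -1.57 in the wild type, and 142 of them kept their sign in the knockout. In the reverse choice, 90 of the 200 genes with the smallest p in the knockout had a positive response there, with a median of 1.58 in the knockout and 0.962 in the wild type. The remaining 110 had a median of -0.808 in the knockout and -1.03 in the wild type, and 110 of 110 kept their sign in the wild type. Choosing genes by a small p in one genotype tends by itself to give smaller responses in the other. The first 3 of these comparisons had smaller medians in the other genotype, and how much came from the choice was not tested. Of the genes chosen in the wild type, 56 of 57 rising and 143 of 143 falling genes were smaller in the knockout. Of those chosen in the knockout, 59 of 90 rising and 29 of 110 falling genes were smaller in the wild type. With 50 genes in place of 200, the genes chosen in the wild type had medians of 0.915 and -0.853 in the knockout, and those chosen in the knockout had 0.98 and -1.13 in the wild type. With 1000 genes the medians were 0.391 and -0.499 in the knockout, against 0.959 and -0.982 in the wild type that chose them. The genes chosen in the knockout had 0.71 and -0.546 there, against 0.569 and -0.677 in the wild type.

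**Figure D2:**
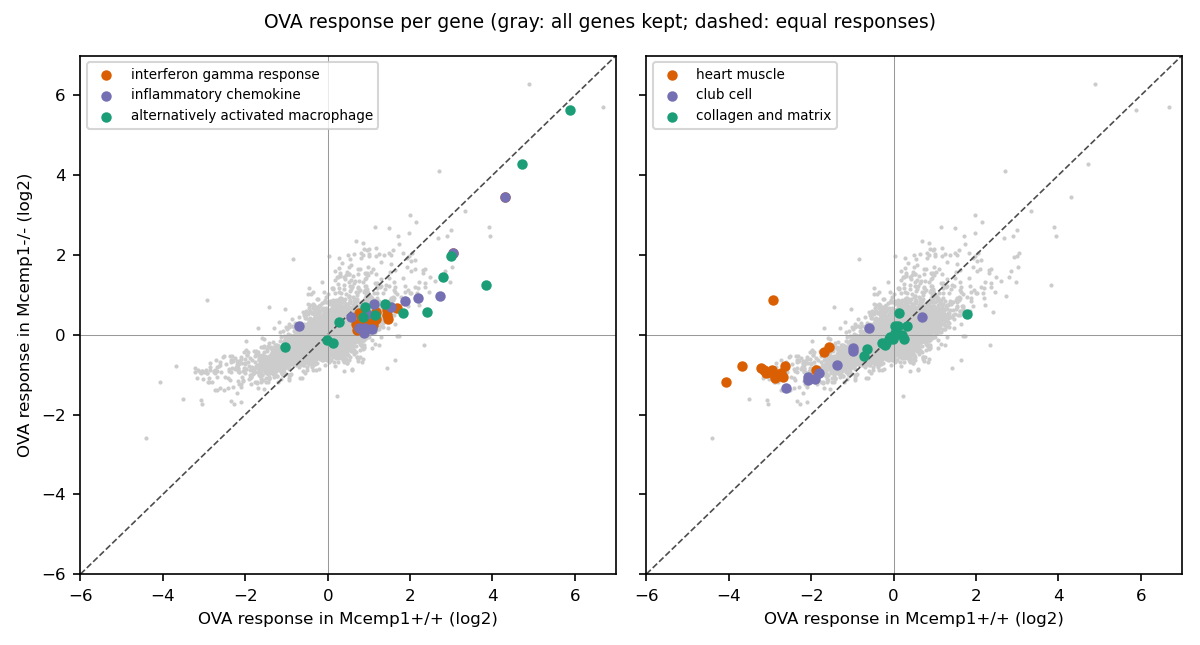
OVA response per gene in *Mcemp1*-/- (vertical, log2) against that in *Mcemp1*+/+ lungs (horizontal, log2), for all 22828 genes kept (gray) and the members of 6 lists (colours). All 21 interferon gamma genes and 13 of 14 chemokine genes lie below the dashed line of equal responses, all 16 heart muscle and 9 of 10 club cell genes lie above it, and collagen and matrix genes, apart from *Timp1* at 1.77 in the wild type, stay near 0.

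The data were then described by function, over 46 gene lists with 605 measured genes. The median difference was below 0 in 27 lists and above 0 in 19. Since no gene of any list passed the adjusted test, each list is given by its counts and its median, beside the shares over all genes given above. The lists were chosen with earlier results of these data known, and genes of one list can vary together. A count above the share of all genes is therefore a description and not a test. In whole lungs, fewer cells of a type and less RNA per cell cannot be told apart.

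**Figure D3:**
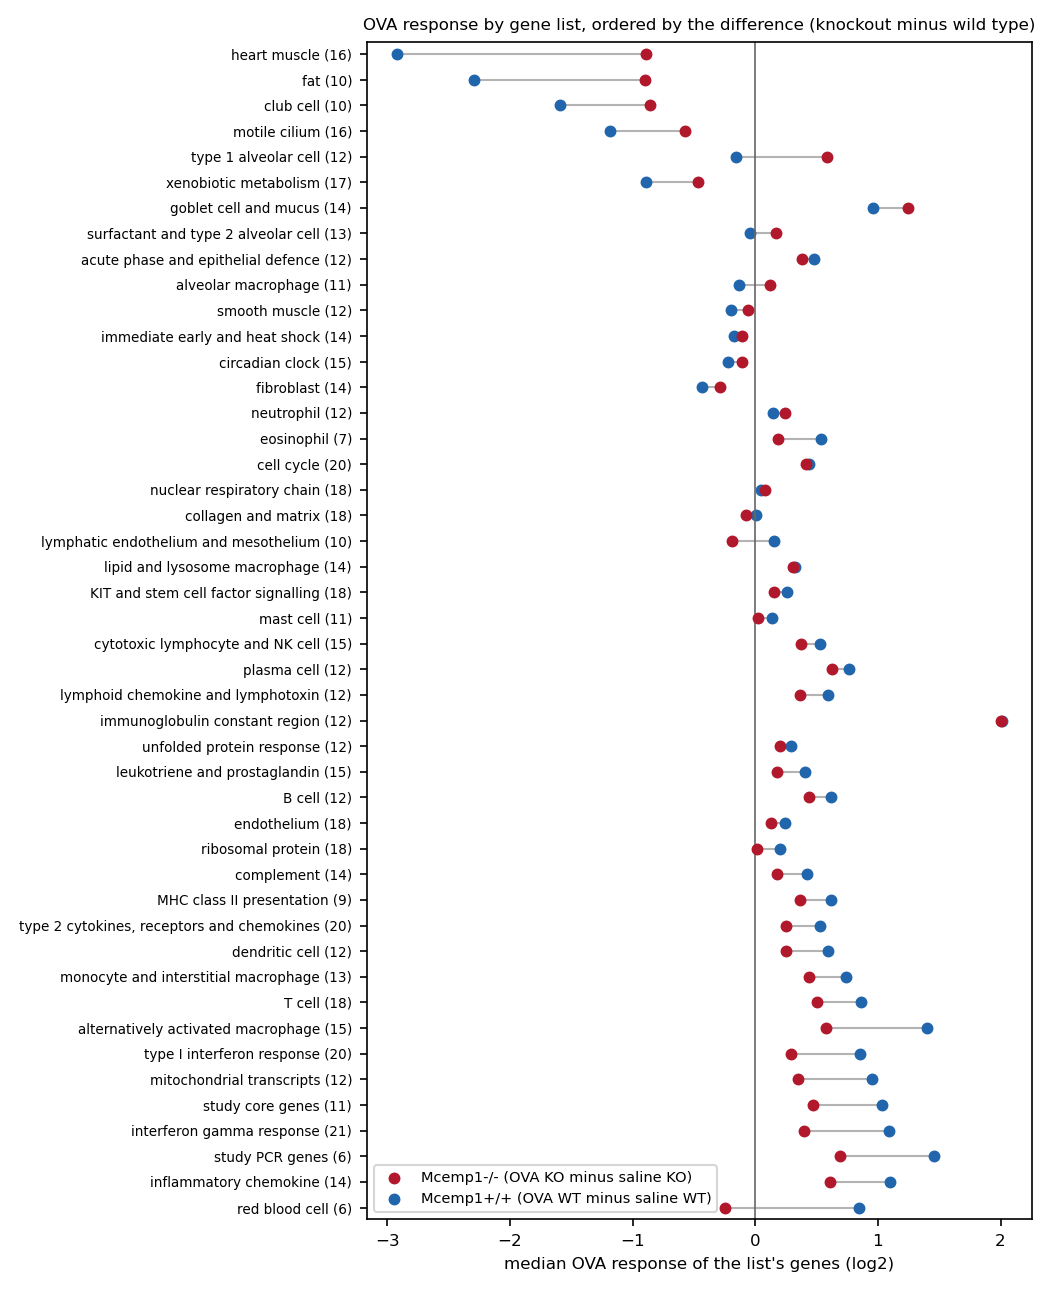
Median OVA response (log2) of 46 gene lists in *Mcemp1*-/- (red) and *Mcemp1*+/+ lungs (blue), ordered from the highest to the lowest difference, with the number of measured genes in parentheses. Interferon, chemokine and alternatively activated macrophage lists have smaller positive medians in the knockout, heart muscle, fat and airway lists have smaller negative ones, and cell cycle, collagen and nuclear respiratory chain lists have nearly the same median in both.

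Interferon gamma targets had a smaller estimated response in the knockout throughout. IFN-gamma, made by T and NK cells, acts through the STAT pathway, whose factors bind palindromic sites, and induces IRF1, guanylate-binding proteins, immunity-related GTPases and the antigen presentation machinery. All 21 measured genes of this list had a negative difference, and 13 of them had an unadjusted p under 0.05, against 3.26% of all genes. The median response was 0.40 in the knockout and 1.09 in the wild type, with a median difference of -0.69 and a range of -1.07 to -0.23. OVA raised 21 of the 21 genes past the test in the wild type and 1, *Cxcl9*, in the knockout. Without OVA KO 1 the median difference was -0.83 with 19 genes past the unadjusted threshold. OVA KO 1 had the highest mean of this list among the OVA KO libraries, so leaving it out widens the difference of list means by that choice. Without OVA KO 3 and OVA WT 2 the median difference was -0.61 with 8 genes past the unadjusted threshold.

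*Ifng* itself was low, with 0.649, 0.546, 0.45 and 0.635 in OVA KO lungs and 0.235, 0.447 and 0.176 in saline KO lungs, against 0.917, 0.689, 0.797 and 0.932 in OVA WT lungs and 0.272, 0.253 and 0.24 in saline WT lungs. Every OVA KO library was below every OVA WT library, and its difference was -0.36 ± 0.17 (limma, unadjusted p = 0.0574). The difference of *Irf1*, a transcription factor that interferons induce, was -0.59 ± 0.20 (limma, unadjusted p = 0.0106), and that of the GTPase *Irgm1* was -0.76 ± 0.23 (limma, unadjusted p = 0.00596). The chemokines *Cxcl9* and *Cxcl10*, ligands of CXCR3 on activated T cells, were the genes of the list that OVA raised most in both genotypes. *Cxcl9* had 22.9, 8.86, 12.1 and 3.63 in OVA KO lungs and 0.398, 0.435 and 0.494 in saline KO lungs, against 21.2, 19.5, 15.3 and 23.3 in OVA WT lungs and 1.02, 0.235 and 0.42 in saline WT lungs. OVA KO 1 reached the OVA WT range. The response was 3.46 ± 0.43 in the knockout and 4.32 ± 0.43 in the wild type. The interval of the difference, -2.16 to 0.44, reached from a more than 4-fold smaller to a slightly larger response.

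To show what these genes share in sequence, the 250 bases before the start of 16 list members with a RefSeq entry were searched on both strands. TTCNNNGAA, the STAT palindrome with a spacer of 3 bases, was found in 7 of the 16 (43.8%), against 8.13% of 27025 genes with a promoter in the RefSeq table. GAAANNGAAA, the core of the interferon-stimulated response element that IRF and STAT complexes bind, was found in 9 (56.2%), against 3.46%. TTCNNNNGAA, the palindrome with a spacer of 4 bases that STAT6 prefers, was in 1 of the 16 (6.25%), against 6.76%. The 5 stretches of 60 bases are printed 5′ to 3′ on the gene's strand, from RefSeq on GRCm38.p6, with the matched palindrome or element in capitals. They show *Irf1* (chr11:53769898-53769957, plus strand), *Irgm1* (chr11:48871421-48871480, minus strand) and *Cxcl10* (chr5:92349068-92349127, minus strand), which are named in the results, and the GTPase genes *Irgm2* (chr11:58214882-58214941, plus strand) and *Igtp* (chr11:58199491-58199550, plus strand), in which both motifs stand side by side. A match is a description and not a measured site. The genes were chosen as interferon gamma response genes and several are close relatives. The shares follow in part from that choice and do not bear on the OVA difference. In the inflammatory chemokine list the palindrome with a spacer of 3 was in 0 of 8 promoters and the element in 1. Among alternatively activated macrophage genes each palindrome was in 2 of 9 promoters and the element in 0.
Irf1: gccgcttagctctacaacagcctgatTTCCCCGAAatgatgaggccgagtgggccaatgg
Irgm1: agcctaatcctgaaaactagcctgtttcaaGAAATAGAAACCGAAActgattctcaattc
Cxcl10: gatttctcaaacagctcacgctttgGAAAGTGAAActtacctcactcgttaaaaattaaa
Irgm2: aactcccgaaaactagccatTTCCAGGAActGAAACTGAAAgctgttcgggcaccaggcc
Igtp: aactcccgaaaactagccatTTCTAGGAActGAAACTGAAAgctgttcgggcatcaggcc

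In *Irgm1* the capitals cover 2 overlapping elements. The stretches of *Irgm2* and *Igtp* are nearly the same. *Igtp* had 47.6, 32, 28.8 and 28.7 in OVA KO lungs and 21.7, 30.6 and 19.7 in saline KO lungs, against 70.4, 57.1, 42.8 and 70.6 in OVA WT lungs and 24.2, 18 and 22.6 in saline WT lungs. No OVA KO library but OVA KO 1 reached the OVA WT range. The difference was -0.94 ± 0.30 for *Igtp* (limma, unadjusted p = 0.0082) and -0.68 ± 0.27 for *Irgm2* (limma, unadjusted p = 0.0278). How reads shared between such close relatives were divided is not given in the sources used here.

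The type I interferon list, genes such as *Oasl2* and *Zbp1* that sense or restrict viral nucleic acid and that share the response element (7 of 14 promoters, 50%), had the same sign. Of 20 genes, 19 had a negative difference and 6 an unadjusted p under 0.05, with a median of 0.29 in the knockout, 0.85 in the wild type and -0.50 for the difference. The difference was -1.08 for *Zbp1* and -0.75 for *Oasl2*, while *Ifit3*, the 1 gene above 0, had 0.07.

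**Figure D4:**
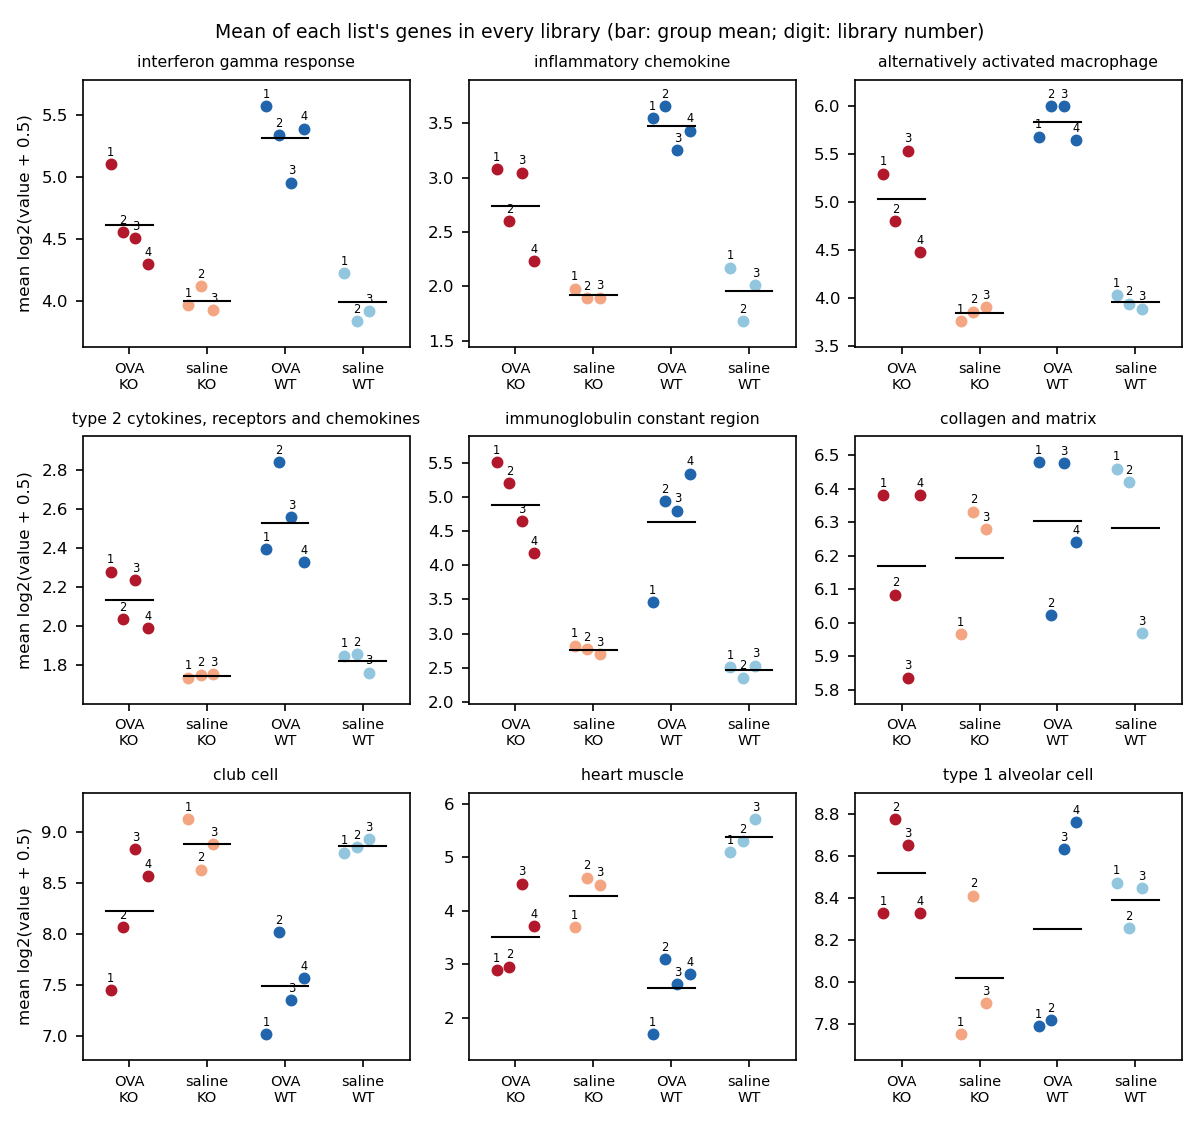
Mean log2(value + 0.5) of the members of 9 lists in every library (points, with the library number) and the group means (bars). After OVA the interferon gamma list spans 4.3 to 5.1 in KO and 4.95 to 5.58 in WT libraries, where OVA KO 1 is the one KO library inside the WT range, and the inflammatory chemokine list spans 2.23 to 3.08 in KO and 3.25 to 3.66 in WT libraries without overlap.

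Inflammatory chemokines gave the lowest median among the lists of immune cells and their signals, -0.84, with 0.61 in the knockout and 1.10 in the wild type. With a pseudocount of 2 the median difference was -0.50. Of 14 genes, 13 had a negative difference and 6 an unadjusted p under 0.05, namely *Ccl2*, *Ccl7*, *Ccl9*, *Ccl12* and the neutrophil attractants *Cxcl1* and *Cxcl2*. OVA raised 11 past the test in the wild type and 1, *Cxcl9*, in the knockout. *Cxcl9* and *Cxcl10* are also on the interferon gamma list. *Ccl2*, *Ccl7* and *Ccl12* are ligands of CCR2, the receptor by which monocytes leave the marrow. *Ccl2* (chromosome 11, 82035571 to 82037453, GRCm38) had 1.9, 1.19, 1.72 and 0.83 in OVA KO lungs and 0.616, 0.418 and 0.435 in saline KO lungs, against 5.48, 8.77, 5.08 and 4.94 in OVA WT lungs and 1.17, 0.652 and 0.9 in saline WT lungs. All OVA KO libraries were below all OVA WT libraries, and the saline KO libraries were below the saline WT libraries. The difference was -1.29 ± 0.32 (limma, unadjusted p = 0.00143, interval -1.98 to -0.59). *Ccl7*, its neighbour with the same receptor, had 5.03, 2.03, 3.95 and 1.07 in OVA KO lungs and 1.17, 0.936 and 1.21 in saline KO lungs, against 13.8, 23.8, 9.64 and 9.68 in OVA WT lungs and 1.89, 0.887 and 2.23 in saline WT lungs. The OVA groups did not overlap, and the difference was -1.75 ± 0.58. *Ccl9* and *Ccl12* had differences of -1.04 ± 0.30 and -0.83 ± 0.34, with knockout minus wild type at -0.98 and -1.05 after OVA and at 0.06 and -0.22 after saline.

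The difference of *Ccr1*, a receptor of CCL3 and CCL5 on monocytes, was -0.82 ± 0.26. Monocyte and interstitial macrophage genes had a median difference of -0.30, with 12 of 13 negative and 2 past the unadjusted threshold, and 10 of 13 were bounded within 2-fold.

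Alternatively activated macrophage genes, which IL-4 and IL-13 induce through STAT6, were not uniform. *Arg1*, the arginase that turns arginine toward ornithine, had 6.74, 3.71, 8.64 and 1.29 in OVA KO lungs and 1.63, 1.52 and 1.3 in saline KO lungs, against 10.6, 47.6, 37.6 and 16.1 in OVA WT lungs and 1.45, 1.14 and 1.02 in saline WT lungs. OVA KO 4 stayed at the saline level, and the OVA groups did not overlap. The difference was -2.58 ± 0.75 (limma, unadjusted p = 0.00439). *Ccl24*, an eosinophil attractant of the same cells, had 1.71, 0.333, 1.29 and 0.329 in OVA KO lungs and 0.437, 0.401 and 0.257 in saline KO lungs, against 4.64, 10.1, 4.06 and 2.77 in OVA WT lungs and 0.576, 0.561 and 0.39 in saline WT lungs. OVA KO 2 and OVA KO 4 were in the saline range. The difference was -1.83 ± 0.55 (limma, unadjusted p = 0.00512), and that of *Pdcd1lg2*, the gene of the PD-1 ligand PD-L2, was -1.28 ± 0.37 (limma, unadjusted p = 0.00388). *Retnla*, which encodes the secreted protein FIZZ1, had 1455, 1087, 1818 and 383 in OVA KO lungs and 62.7, 31.8 and 72.4 in saline KO lungs, against 1602, 1670.5, 2671 and 1673 in OVA WT lungs and 61, 49.2 and 116 in saline WT lungs. It rose past the test in both genotypes, by 4.27 in the knockout (adjusted p = 0.00323, limma) and 4.71 in the wild type (adjusted p = 0.00026). The OVA groups overlapped. The interval of the difference was -1.87 to 0.99 and held both an equal and a 2-fold smaller response. *Chil3*, a chitinase-like secretory protein, had a difference of -1.35 ± 0.54 (limma, unadjusted p = 0.0265). *Chil4*, a close relative whose reads may be shared with it, had -0.24 ± 1.40. Over the list, 13 of 15 differences were negative and 6 passed the unadjusted threshold, with a median of -0.44. Without OVA KO 1 the median was -0.61, and without OVA KO 3 and OVA WT 2 it was -0.75, over 1.5 times the value in all libraries.

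Type 2 cytokine, receptor and chemokine genes had a smaller median difference, -0.26, with 16 of 20 negative, 3 past the unadjusted threshold and 16 bounded within 2-fold. Several of them lie near the lower limit of the table, where a pseudocount of 0.5 compresses changes. *Il13*, the cytokine of mucus and airway reactivity, had 0.169, 0.0159, 0.109 and 0.0286 in OVA KO lungs and 0.0398, 0.0334 and 0.0198 in saline KO lungs, against 0.255, 0.422, 0.319 and 0.237 in OVA WT lungs and 0.0148, 0.0181 and 0.06 in saline WT lungs. OVA KO 2 and OVA KO 4 were in the saline range, and all OVA KO libraries were below all OVA WT libraries. The difference was -0.48 ± 0.15 (limma, unadjusted p = 0.00579). *Il4* and *Il5* did not pass for OVA in either genotype and had differences of -0.20 ± 0.22 and -0.17 ± 0.17. *Ccl8*, a CCR8 ligand of type 2 inflammation in mice, had 11.2, 7.6, 12.8 and 7.91 in OVA KO lungs and 1.33, 0.836 and 1.3 in saline KO lungs, against 12.7, 16.1, 22 and 14.2 in OVA WT lungs and 1.54, 1.56 and 1.54 in saline WT lungs. It rose past the test in both genotypes, by 2.63 in the knockout and 3.00 in the wild type. The interval of its difference was -1.0 to 0.25, which holds an equal response and, at its edge, a 2-fold smaller one. The genes from the list that were past the unadjusted threshold were *Il13*, *Ccl24* and *Gata3*, the master regulator of type 2 lymphocytes, at -0.43.

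The genes that the study selected from these libraries (11) or measured by PCR (6) all had negative differences. Because they were picked on these mice, their direction is no independent evidence. The medians were -0.64 and -0.72, with 5 and 3 genes past the unadjusted threshold. They included *Il13*, *Ccr1* and *C3* in the first set and *Il13* and *Ccl2* in the second. The complement genes *C3* and *Cfb* had differences of -0.90 ± 0.28 and -0.64 ± 0.49. *Mmp12*, the macrophage elastase, rose past the test in both genotypes, by 1.98 in the knockout and 3.00 in the wild type, and had a difference of -1.03 ± 0.48 (interval -2.06 to 0.01). *Il10* at -0.43 ± 0.44, *Ccl3* at -0.60 ± 0.36, *Ccl5* at -0.44 ± 0.47 and *Cxcl10* at -0.98 ± 0.58 had unadjusted p of 0.346, 0.121, 0.359 and 0.113. *Ccl5*, an attractant of T cells, had 14.8, 16.8, 13.3 and 12.8 in OVA KO lungs and 13.5, 38.8, 10.1 and 11.6 in OVA WT lungs. The high value was that of OVA WT 2, and the difference was 0.01 without OVA KO 3 and OVA WT 2.

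Lymphocyte lists depended on the libraries included. T cell genes had a median difference of -0.35 and B cell genes of -0.17 in all libraries, and 0.22 and 0.55 without OVA KO 3 and OVA WT 2. Without OVA WT 2 alone they were 0.13 and 0.4. The mean log2 value over the B cell list was 3.46 to 4.47 in OVA KO libraries, 6.11 in OVA WT 2 and 3.6 to 4.11 in the other OVA WT libraries. No B cell gene was bounded within 2-fold, and none passed the unadjusted threshold in all libraries. Without OVA KO 3 and OVA WT 2, 5 of 12 B cell genes and 4 of 18 T cell genes passed it for a higher difference.

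Antibody genes responded in both genotypes without a settled difference. Constant region genes had median responses of 2.00 in the knockout and 2.01 in the wild type, and none of the 12 was bounded. The median difference was -0.15, with 10 of 12 negative. Without OVA KO 3 and OVA WT 2 it was 0.27, with 5 of 12 negative. *Ighg1*, the dominant isotype of OVA immunization, had 41.2, 157, 112 and 2.26 in OVA KO lungs and 0.258, 0.251 and 0.158 in saline KO lungs, against 23.5, 152, 163 and 833 in OVA WT lungs and 1.24, 1.25 and 0.51 in saline WT lungs. Both OVA groups ranged over more than 10-fold, OVA KO 4 being the low library. The interval of the difference ran from -4.87 to 2.93. *Igha*, the constant region of IgA, had 712, 481, 588 and 444 in OVA KO lungs and 97.2, 111 and 89.2 in saline KO lungs, against 65.4, 50.5, 256 and 134 in OVA WT lungs and 10.6, 10.7 and 21.1 in saline WT lungs. All KO libraries were above the WT libraries of the same treatment. The responses were 2.46 ± 0.43 in the knockout and 2.90 ± 0.43 in the wild type, a difference of -0.44 ± 0.61. Knockout minus wild type passed the test at 2.40 after OVA (adjusted p = 0.0287, limma) and at 2.84 after saline (adjusted p = 0.0407). *Jchain*, which joins IgA and IgM into polymers, had 578, 340.5, 382 and 251 in OVA KO lungs and 60.1, 57.2 and 53.5 in saline KO lungs, against 47.4, 91.3, 241 and 330.3 in OVA WT lungs and 7.58, 6.27 and 13.5 in saline WT lungs. The saline KO libraries were above the saline WT libraries, the OVA groups overlapped, and the difference was -1.21 ± 0.74. Variable segments were counted by the gene class in the table, a choice made after their values had been seen. Of 151 measured, 130 had a positive difference and 29 an unadjusted p under 0.05 for a higher one, against 3.76% of all genes. Their median response was 1.15 in the knockout and 0.548 in the wild type, with a median difference of 0.527. Segments expressed by the same cells can vary together, so their counts are not those of independent genes. No values with libraries left out were taken for the segments. Variable segments resemble each other, and how reads that match several were counted is not given in the sources used here. Of 19 T cell receptor variable segments, 8 were above 0, with a median of -0.031.

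Heart muscle genes had the highest median difference of all lists, 2.02, and 16 of 16 passed the unadjusted threshold, against 3.76% of all genes. In mice, muscle of the heart type extends along the pulmonary veins. *Myh6*, the alpha myosin heavy chain, had 35.2, 49.1, 149 and 131 in OVA KO lungs and 102, 274 and 187 in saline KO lungs, against 7.06, 37.5, 21.8 and 36.1 in OVA WT lungs and 284, 412 and 438 in saline WT lungs. Its responses were -1.18 ± 0.60 in the knockout and -4.08 ± 0.60 in the wild type, with a difference of 2.90 ± 0.84 (limma, unadjusted p = 0.00437). The OVA groups overlapped, and the saline KO libraries were below the saline WT libraries. *Lmod2* (chromosome 6, 24597762 to 24605414, GRCm38) encodes a protein of thin filaments. It had 2.18, 2.09, 4.98 and 3.3 in OVA KO lungs and 3.32, 6.52 and 4.47 in saline KO lungs. The values were 0.883, 1.56, 1.39 and 1.56 in OVA WT lungs and 7.95, 10.9 and 12.1 in saline WT lungs. The OVA KO libraries were above the OVA WT libraries, and the difference was 1.99 ± 0.39 (limma, unadjusted p = 0.00017). OVA lowered 15 of the 16 past the test in the wild type and 0 in the knockout. The mean log2 value over the list was 2.89 to 4.51 in OVA KO libraries and 3.69 to 4.62 in saline KO libraries, against 1.69 to 3.10 in OVA WT libraries and 5.10 to 5.72 in saline WT libraries. The saline WT libraries were highest with no overlap. Knockout minus wild type had a median of 1.02 after OVA and of -0.94 after saline. How much heart or vein muscle each sample held was not measured, and its part in the result was not tested. Without OVA KO 1 the median difference was 2.29, and without OVA KO 3 and OVA WT 2 it was 1.84, with 15 and 16 genes past the unadjusted threshold.

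Fat genes had a median difference of 1.3, but none passed the unadjusted threshold. *Adipoq*, the adipocyte hormone adiponectin, had 0.375, 0.0476, 15.2 and 0.229 in OVA KO lungs and 5.19, 5.68 and 2.51 in saline KO lungs, against 0.116, 1.39, 0.114 and 0.449 in OVA WT lungs and 13.1, 7.68 and 3.45 in saline WT lungs. *Plin1*, which coats lipid droplets, had 0.751, 0.159, 12.7 and 0.572 in OVA KO lungs against 0.348, 1.2, 0.228 and 0.449 in OVA WT lungs. OVA KO 3 was the high OVA library in both. Without OVA KO 3 the median difference of the list was 0.38, and without OVA KO 3 and OVA WT 2 it was 0.58. The fat in each sample was not measured, and its part in these values was not tested.

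Airway epithelial genes had positive differences, that is, a smaller estimated loss after OVA in the knockout. Club cells line the small airways and secrete *Scgb1a1*, and they are rich in P450 enzymes. *Cyp2f2* had 649, 1375, 1164 and 1918 in OVA KO lungs and 3587, 2670.4 and 2829 in saline KO lungs, against 404, 719, 579 and 386 in OVA WT lungs and 2712, 3246 and 3349 in saline WT lungs. OVA KO 1 lay within the OVA WT range, the other OVA KO libraries above it, and the saline groups overlapped. The response was -1.34 ± 0.30 in the knockout (adjusted p = 0.0798, limma) and -2.61 ± 0.30 in the wild type (adjusted p = 0.00037), and the difference was 1.27 ± 0.43 (limma, unadjusted p = 0.0108). *Scgb1a1* had 7332, 15104, 9468 and 16109 in OVA KO lungs and 29526, 19857 and 23390 in saline KO lungs, against 4346, 5546, 7511 and 4822 in OVA WT lungs and 20265, 24511 and 24499 in saline WT lungs. Again OVA KO 1 alone was within the OVA WT range. The difference was 1.01 ± 0.39 (limma, unadjusted p = 0.0209), and that of *Cbr2*, a carbonyl reductase of club cells, was 0.86 ± 0.36 (limma, unadjusted p = 0.0342). Over the club cell list 9 of 10 differences were positive and 4 passed the unadjusted threshold, with a median of 0.78. This was 1.10 without OVA KO 1 and 0.76 without OVA KO 3 and OVA WT 2. Knockout minus wild type had a median of 0.74 after OVA and of -0.03 after saline.

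Ciliated cell and xenobiotic metabolism genes had the same sign. All 16 cilium genes had a positive difference, with a median of 0.67, and 1, *Tppp3*, a tubulin-binding protein of cilia, passed the unadjusted threshold. *Foxj1*, the regulator of ciliogenesis, had 27.9, 47, 108 and 63.7 in OVA KO lungs and 108, 82 and 84.3 in saline KO lungs, against 26.9, 93.9, 26.4 and 34.5 in OVA WT lungs and 109, 110.4 and 116 in saline WT lungs, and a difference of 0.79 ± 0.61. OVA KO 3 and OVA WT 2 were the high OVA libraries. Without both, the count past the unadjusted threshold was 11 of 16 at a median of 0.70. This pair was singled out by its airway transcripts, so leaving it out narrows the spread of these genes by that choice. All 17 detoxification genes, expressed in club cells and also elsewhere in the lung, were positive with a median of 0.57 and 6 past the unadjusted threshold. These included *Ces1d*, a carboxylesterase, at 0.71 ± 0.23, *Cyp2s1* at 0.80 ± 0.31 and *Cyp4b1* at 0.45 ± 0.20. *Cyp1a1* was at 0.79 ± 1.11, and the value turned to -0.57 without saline WT 3, the high library among 7.58, 17 and 199.9 in saline WT lungs. Goblet cell and mucus genes had a median difference of 0.38, and 0 of 14 were bounded. The median turned to -0.43 without OVA KO 3, -0.03 without OVA WT 1 and -0.11 without OVA WT 3, and was 0.12 without OVA KO 3 and OVA WT 2. Their mean log2 value was 3.05 to 6.35 in OVA KO libraries and 1.96 to 2.78 in saline KO libraries, against 2.87 to 5.67 in OVA WT libraries and 2.11 to 3.36 in saline WT libraries.

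Genes of type 1 alveolar cells, the thin cells of gas exchange, had positive differences. *Ager*, their surface receptor RAGE, had 678, 939, 831 and 598 in OVA KO lungs and 356, 673 and 425 in saline KO lungs, against 391, 433, 836 and 878 in OVA WT lungs and 769, 624 and 722 in saline WT lungs. All 4 groups overlapped. The responses were 0.68 ± 0.29 in the knockout and -0.24 ± 0.29 in the wild type, a difference of 0.92 ± 0.42 (limma, unadjusted p = 0.0443). Of the list, 12 of 12 genes were positive with a median of 0.65 and 3 past the unadjusted threshold. Without OVA KO 3 and OVA WT 2 the median was 0.45, and 0 passed. Knockout minus wild type had a median of 0.27 after OVA and of -0.36 after saline. None of the 12 passed for OVA in either genotype.

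**Figure D5:**
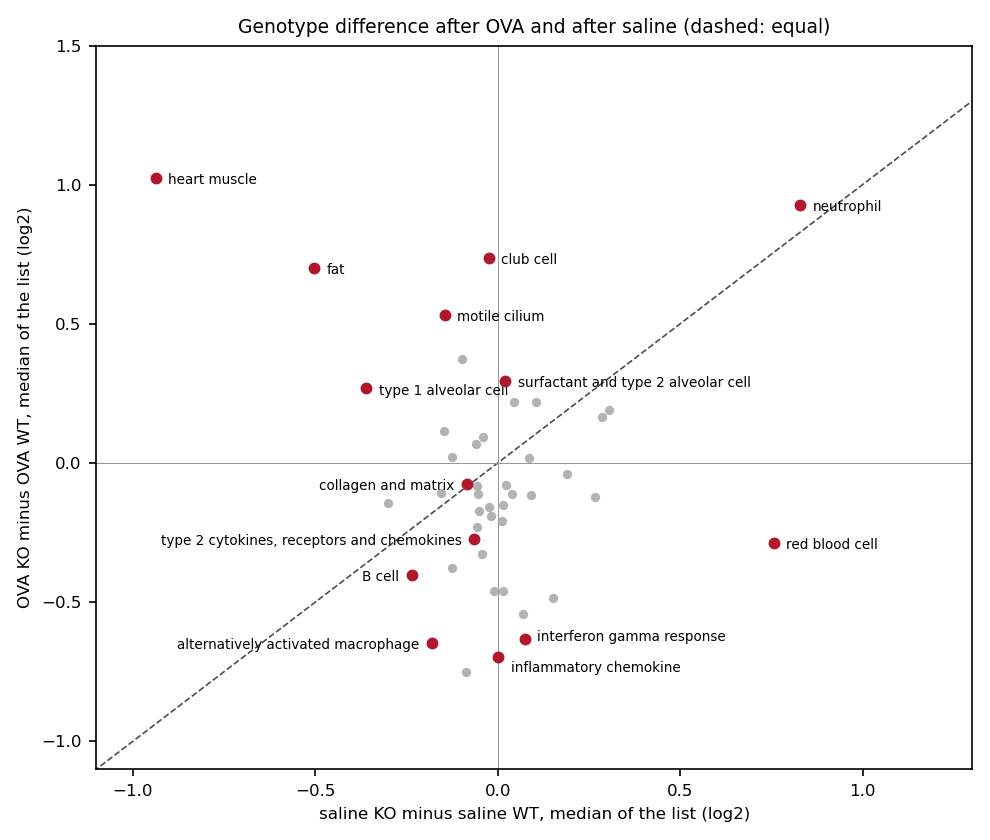
Median knockout minus wild type difference of each list after OVA (vertical, log2) against that after saline (horizontal, log2), with a dashed line of equal values. The vertical distance from the line is a difference of 2 medians, not the median difference of responses given in the text. The 2 can differ in sign. Eosinophil genes had -0.159 after OVA and -0.023 after saline, but a median difference of responses of 0.052. Interferon gamma, chemokine and club cell lists lie near 0 on the saline axis and away from it on the OVA axis, heart muscle has terms of opposite sign at 1.02 and -0.94, and neutrophil genes lie at 0.93 and 0.83, close to the dashed line.

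Other functions had median differences near 0. The share of genes bounded within 2-fold is to be read against the 84.4% of all genes. Collagen and matrix genes, which build up in airway remodelling, had a median difference of 0.01, and 15 of 18 were bounded within 2-fold. *Col1a1* was at -0.02 and *Col3a1* at -0.09, with intervals of -0.66 to 0.62 and -0.82 to 0.64, and OVA moved neither past the test in either genotype. The exception was *Timp1*, with 8.35, 5.38, 6.92 and 3.37 in OVA KO lungs and 4.04, 3.23 and 4.45 in saline KO lungs, against 14.9, 19.6, 15.4 and 14 in OVA WT lungs and 4.59, 3.8 and 4.47 in saline WT lungs. The OVA groups did not overlap, and the difference was -1.27 ± 0.32 (limma, unadjusted p = 0.00143). Cell cycle genes had medians of 0.41 in the knockout and 0.44 in the wild type and 16 of 20 bounded. Nuclear genes of the respiratory chain had 18 of 18 bounded at a median of 0.01, and surfactant genes 12 of 13 at 0.22. *Xbp1*, the factor of secretory expansion, had 192, 161, 169.9 and 162 in OVA KO lungs and 148, 171 and 152 in saline KO lungs, against 177, 176, 179.5 and 180.4 in OVA WT lungs and 166, 161 and 162 in saline WT lungs, and the interval of its difference was -0.24 to 0.23.

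Mast cell genes, in view of the name of the targeted protein, were read in full. Of 17 listed, 11 were measured, and 7 of these did not exceed 2 normalized counts in any library. *Kit*, the stem cell factor receptor, which other lung cells also express, had 239, 176, 139.5 and 209.7 in OVA KO lungs and 135, 200.3 and 168 in saline KO lungs, against 245, 158, 200.2 and 162 in OVA WT lungs and 174, 161 and 137 in saline WT lungs. All groups overlapped, and the difference was -0.09 ± 0.28 with an interval of -0.69 to 0.51. *Cpa3* had 0.995, 0.888, 0.362 and 0.515 in OVA KO lungs and 0.795, 0.735 and 0.514 in saline KO lungs, against 1.25, 0.57, 0.934 and 0.497 in OVA WT lungs and 0.98, 0.579 and 0.285 in saline WT lungs, also with overlap throughout. Its difference was -0.27 ± 0.36, that of *Cma1*, a chymase, was 0.20 ± 0.24 and that of *Hdc*, which makes histamine, was 0.29 ± 0.17. *Mcpt4*, the chymase of connective tissue mast cells, had 0.467, 0.159, 0.29 and 0.4 in OVA KO lungs and 0.318, 0.384 and 0.316 in saline KO lungs, against 0.372, 0.253, 0.296 and 0.118 in OVA WT lungs and 0.65, 0.435 and 0.615 in saline WT lungs, all under 1 normalized count. It fell past the test in the wild type, by -0.49 (adjusted p = 0.0408, limma), and was at -0.03 in the knockout. Its difference of 0.46 ± 0.20 (limma, unadjusted p = 0.0401) was the 1 of the list past the unadjusted threshold. Of the 11 genes, 9 were bounded within 2-fold, a share close to the 84.4% of all genes, and at such low counts the pseudocount narrows the interval. The median difference was -0.09, which changed sign with the filter, with equal column totals, without OVA KO 3 and OVA WT 2 together and without any 1 of OVA KO 3, saline KO 2, OVA WT 1 and saline WT 3. None rose past the test after OVA in either genotype.

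Mitochondrially encoded transcripts, often read as a sign of RNA quality as well as of the organelle, had 12 of 12 negative differences with a median of -0.60, and 1 past the unadjusted threshold, *mt-Nd3*, a subunit of complex I, at -0.85 ± 0.33. The count was 6 at a median of -0.73 without OVA KO 1, and 8 at -0.77 without OVA KO 3 and OVA WT 2. They rose past the test in the wild type in 12 of 12 cases and in the knockout in 0. Quantile normalization reduced the median to -0.07. Ribosomal protein genes had 18 of 18 negative differences, all bounded within 2-fold, at a median of -0.21. Red blood cell genes had the lowest median of all lists, -1.04, but *Hba-a1*, the alpha globin, had 36.7, 13.4, 83.6 and 74.8 in OVA KO lungs and 152, 4.45 and 174 in saline KO lungs, against 46.6, 52.3, 95.4 and 33.1 in OVA WT lungs and 7.51, 70.9 and 48.1 in saline WT lungs. All groups overlapped, saline KO lungs alone ranged over more than 10-fold, and no gene of the list was bounded. The blood left in each lung was not measured, and its part in these values was not tested.

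Scaling bears on the direction of small differences. Column totals were 949436 to 1072809 in OVA KO and 907121 to 976143 in saline KO, against 1028263 to 1148437 in OVA WT and 914409 to 957464 in saline WT. With all columns brought to the same total, the median difference of all genes moved up by 0.11, the share of genes below 0 was 30.8% in place of 50.8%, and the unadjusted threshold passed 345 genes with a lower and 1599 with a higher difference in place of 744 and 858. The median of 5 lists turned positive with equal totals, namely cytotoxic lymphocytes, KIT signalling, lipid and lysosome macrophages, lymphatic endothelium and mast cells, and that of the cell cycle turned negative with quantile normalization. These lists had medians between -0.12 and 0.02 in the values as deposited.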

How the data were processed

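Mouse lung RNA was profiled by RNA-seq in 14 libraries (KAPA mRNA HyperPrep). The submitters' processing notes name STAR, Partek and mm10. The deposited table holds 1 signal value per gene and library, normalized counts made by the authors with a method not given in the sources used here. Of 24270 genes, 22828 were kept because they reached 0.2 ppm of a library's summed values in 3 or more libraries. After subtraction of the lowest value of a column, 68.9% to 71.7% of values below 30 times that value were whole multiples of it within 0.05. The rest were fractional, so no count model was used.

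With limma 3.58.1 in R 4.3.3, 4 group means were fitted to log2(value + 0.5) of all 14 libraries, with empirical Bayes moderation (trend and robust), and p-values were adjusted by Benjamini-Hochberg over all genes of a comparison, at 0.05. A fold change on this scale understates that of low genes. The ± after a log2 value is its SE, and intervals are 95% intervals. Tests are two-sided. Saline libraries are headed CO in the table, which the design text explains. The procedure was run on simulated data with independent normal noise for each gene. The share of simulated differences found at the adjusted threshold is not reported here. Members and gene lists were chosen with earlier results of these data known. Named were the 12 genes with the smallest p in each direction and fixed members of the lists; genes named otherwise are examples from a list. Alternatives were the pseudocount, filter, scaling, model, replicate block and libraries left out.

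Gene positions are from the GENCODE annotation on GRCm38 and promoters from RefSeq on GRCm38.p6. The authors' own comparisons were not used. Some list members are counted but their own values are not reported here.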

Additional observations from a re-analysis of the deposited data

Results flagged for a closer look

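Values of the OVA groups that lay far from the other libraries of their group were found in 22 of 246 groups of 4 examined. Each extreme value's gap to its nearest neighbour, over the group's range, was read against a 95% limit. By chance, about 1 in 20 independent groups of normally distributed values pass this limit. Gene values were read as untransformed normalized counts. The groups are also not independent, since many are genes of the same cell type in the same libraries. The 22 groups therefore cannot be set against that rate. OVA KO 3 was the library apart for fat genes, with a list mean of 3.74 on the log2 scale and normalized counts of 15.2 for *Adipoq*, 12.7 for *Plin1*, 41 for *Cfd*, 4.19 for *Retn* and 5.65 for *Cidea*. It was also apart for *Cyp2a5* at 227, *Chil4* at 314, *Igsf1* at 1.41 and *Ighe* at 0.526. OVA KO 1 was apart for *Ighm* at 716, and OVA KO 4 for *Gm16867* at 3.05. In the wild type, OVA WT 2 was apart for *Foxj1* at 93.9, *Tekt1* at 13.2, *Ccl5* at 38.8 and *Ccl2* at 8.77, and OVA WT 3 for *Irf1* at 100, *Hdc* at 68, *Hbb-bs* at 632 and *Retnla* at 2670. OVA WT 1 was apart for *Ifi208* at 34 and OVA WT 4 for *Mylk3* at 4.28. The difference between the genotypes in the OVA response passed the test for *Gm16867*, at 2.73 on the log2 scale (limma).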

How the results depend on the processing

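A difference of responses needs all 4 groups, and with 3 or 4 libraries each it was imprecise for low genes. Apart from the values below, 599 list medians stayed within the spread of the libraries or counts within 1.5 times, libraries left out singly not counted. For those that did not, the cause was not tested. A median within the spread could still change sign. Without OVA KO 3 and OVA WT 2 the signs turned at 0.191 for lymphoid chemokines, 0.273 for immunoglobulin constant regions and 0.027 for plasma cells. They also turned at -0.004 for neutrophils, -0.08 for the nuclear respiratory chain and -0.039 for immediate early genes. A pseudocount of 2 left 0 genes past the threshold for the difference and an inflammatory chemokine median of -0.503, and a pseudocount of 0.1 gave *Chil4* 0.147. A filter at 2 ppm gave 54 genes for the OVA response in knockout and medians of -0.979 for the study PCR genes and 0.098 for mast cells. Equal column totals gave 345 lower and 1599 higher differences at an unadjusted p under 0.05, 145 genes for the OVA response in knockout and 4807 in wild type. The medians were then 0.053 for KIT and stem cell factor signalling, 0.06 for lipid and lysosome macrophages, 0.155 for the nuclear respiratory chain, -0.068 for ribosomal proteins and -0.058 for leukotrienes and prostaglandins, with *Kit* at 0.051, *Xbp1* at 0.138 and *Ighm* at 0.129. Quantile normalization gave a mitochondrial median of -0.067, *mt-Nd4* 0.055, *mt-Nd5* 0.08 and *Xbp1* 0.001. Array weights gave 1618 lower and 1616 higher differences, 645 genes for the OVA response in knockout and 4701 in wild type, with *Ccl5* at 0.008, *Cyp1a1* at -0.024 and *Ighm* at 0.17. Without OVA KO 3 and OVA WT 2, 467 genes passed for the OVA response in knockout, and medians were 0.074 for mast cells, -0.751 for alternatively activated macrophages, 0.216 for T cells and 0.548 for B cells, with *Ccl5* at 0.014, *Mzb1* at 0.056, *Lep* at -0.009 and *Ighm* at 0.763.

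The main fit did not treat libraries of the same replicate number as pairs. Of 19 pairs with the same number, 5 had deviations correlated above 0.1, with a range of -0.319 to 0.386. Pairs with different numbers were not read beside them, so whether some libraries were paired is not settled. The replicate block left 0 genes past the threshold for the difference, with 858 lower and 949 higher at an unadjusted p under 0.05 (limma), and 125 and 2888 genes for the OVA response in knockout and wild type.

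Libraries left out singly gave 0 to 2 genes past the threshold for the difference, 468 to 1267 lower and 599 to 1431 higher differences, 11 to 220 genes for the OVA response in knockout and 1159 to 3035 in wild type. Medians ranged over -0.857 to -0.493 for the study core genes, -0.148 to 0.331 for eosinophils, -0.081 to 0.328 for fibroblasts, -0.022 to 0.305 for the circadian clock and -2.771 to -0.058 for red blood cells. Named genes whose sign turned were *Cyp1a1* (-0.572 to 1.744), *Retnla* (-0.798 to 0.032), *Ighe* (-0.494 to 0.034), *Hba-a2* (-2.791 to 0.014), *Ighg1* (-1.851 to 0.288), *Kit* (-0.237 to 0.05), *Mzb1* (-0.574 to 0.126), *Chil4* (-1.299 to 0.702), *Lep* (-0.304 to 0.33), *Xbp1* (-0.059 to 0.059) and *Ighm* (-0.759 to 0.376).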

Other observations

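The size of the difference in the antigen presentation lists rested in part on OVA KO 3 and OVA WT 2. In all libraries, all 9 measured MHC class II genes had a negative difference, with a median of -0.24, and 2 had an unadjusted p under 0.05 (limma). These were *Ctss*, the protease that degrades the invariant chain, at -0.58 ± 0.22, and *H2-DMb1*, a subunit of the peptide exchange factor, at -0.51 ± 0.20. Dendritic cell genes had a median of -0.28, with *Batf3*, a factor of cross-presenting dendritic cells, at -1.03 ± 0.36 and *Itgax*, the gene of CD11c, at -0.67 ± 0.25. Without OVA KO 3 and OVA WT 2 the median was -0.04 for the MHC class II list, with 6 of 9 negative, and -0.12 for the dendritic cell list, with 8 of 12 negative. *Xcr1* and *Clec9a*, which mark the same cross-presenting cells, were at 0.35 ± 0.25 and -0.02 ± 0.32. In the complement list 13 of 14 genes had a negative difference, and *C3ar1*, the receptor of C3a, was at -0.63 ± 0.18.

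Genes in these paragraphs were named from their lists after their values were seen. *S100a8*, a subunit of the neutrophil protein calprotectin, had 91.2, 75.2, 114 and 106 in OVA KO lungs and 46.7, 102 and 71 in saline KO lungs, against 54.3, 33.8, 59.5 and 11.5 in OVA WT lungs and 48.9, 25.9 and 16 in saline WT lungs. All OVA KO libraries were above all OVA WT libraries, the saline groups overlapped, and the difference of responses was 0.15 ± 0.70. Over the neutrophil list the median difference was 0.07, and knockout minus wild type had a median of 0.93 after OVA and 0.83 after saline. The acute phase and epithelial defence list had a median difference of 0.20, with 7 of 12 genes above 0. In each direction 2 genes passed the unadjusted threshold, and the median turned to -0.20 without OVA KO 3. The lowest gene was *Saa3*, a serum amyloid protein, at -1.30 ± 0.52, and the highest was at 1.10. *Lcn2*, lipocalin 2, was at -0.06 ± 0.24 with an interval of -0.58 to 0.46. *Sdc1*, syndecan 1 of epithelium and plasma cells, had 136, 144, 151 and 169 in OVA KO lungs and 173, 175 and 182 in saline KO lungs, against 88.9, 96.3, 122 and 109 in OVA WT lungs and 174, 179.6 and 199 in saline WT lungs. All OVA KO libraries were above all OVA WT libraries, the saline groups overlapped, and its difference was 0.59 ± 0.15 (limma, unadjusted p = 0.00151, adjusted p = 0.549). Of 10 listed eosinophil genes, 7 were measured, 3 below 0 and 4 above, with a median difference of 0.05. The highest was *Prg2*, the major basic protein, at 0.65 ± 0.30, and the lowest *Ccr3*, the eotaxin receptor, at -0.37 ± 0.14.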
